A study of Mus musculus with 15 samples.

Results

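The genes examined here encode the proteasome, and were every mouse gene whose annotated symbol begins with Psm, is followed by a letter from a to g and then by a number. In the CD4+ T-cell arrays 49 of 18194 genes met this rule, with 103 of 45101 probe sets, and in the thymocyte arrays 48 of 12394 genes did, with 85 probe sets. Of the 49 genes, 8 encode the outer alpha ring of the core particle (Psma1 to Psma8), 7 the constitutive inner beta ring (Psmb1 to Psmb7), 4 the alternative catalytic beta subunits (Psmb8, Psmb9, Psmb10 and Psmb11), 6 the ATPases of the regulatory particle (Psmc1 to Psmc6) and 11 its non-ATPase subunits (Psmd1 to Psmd4, Psmd6 to Psmd8 and Psmd11 to Psmd14). A further 3 encode activators that cap the core in place of the regulatory particle (Psme1, Psme3 and Psme4) and 8 encode assembly chaperones or the inhibitor (Psmd5, Psmd9, Psmd10, Psmf1 and Psmg1 to Psmg4). The remaining 2, Psmc3ip and Psme3ip1, share the naming pattern because they are named as partners of Psmc3 and Psme3, and are no subunits. Psme2 had only a probe set shared with another gene and was not measured on its own, and Psmb11 had no probe set of its own on the thymocyte arrays.

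The proteasome is the barrel-shaped protease that degrades proteins tagged with ubiquitin. Its regulatory particle binds and unfolds the tagged protein with a ring of ATPases and threads it into the core, where 3 of the beta subunits (Psmb5, Psmb6 and Psmb7) cut it. Lymphocytes, and other cells exposed to interferon, replace these catalytic subunits with Psmb8, Psmb9 and Psmb10 to form the immunoproteasome, which favours peptides that fit MHC class I, and cortical epithelial cells of the thymus use Psmb11. Nfe2l1 and Nfe2l2 are transcription factors that bind a shared DNA element. Nfe2l1 is known to raise subunit genes together when proteasome activity falls, and Irf1 is known to induce the immunoproteasome genes.

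The groups were as follows. CD4+ T cells were sorted from spleens of wild-type (WT) mice and of mice lacking N-ras (N-ras KO), a membrane-bound GTPase of the Ras family, and were left overnight without stimulus or with 1 µg/ml of antibodies to CD3e and CD28, a weak trigger of the T-cell receptor. Each of these 4 groups had 3 arrays, numbered 1 to 3. Thymocytes, which are immature T cells, came from mice of 3 genotypes (WT, N-ras KO, and a knockout of the related H-ras) with 1 array each and no stimulation. All mice were of strain 129/SJ, and the WT mice were littermates of the knockouts. The labels give all mice an age of 6 to 20 weeks, while the study's methods give 6 weeks for the thymocyte mice. The sources say both that sorted cells were split between the conditions and that each condition used a mouse of its own. Stimulated and unstimulated arrays of the same genotype and number were taken as pairs. The p-values of the responses and of their difference measure the spread of the differences within such pairs. Those of stimulated WT against stimulated N-ras KO measure the spread between arrays. Either spread may be partly technical.

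The deposited log2 values were set relative to a baseline: in CD4+ T cells the median of the 3 unstimulated arrays of each genotype was 0 on all 45101 probe sets, and in thymocytes the median of the 3 arrays was 0 on all 22690. The values therefore give differences within a genotype and no level, the unstimulated genotypes cannot be set against each other, and whether the defining T-cell markers were present cannot be checked by level. Nras itself went against the label of array 3 in the N-ras KO groups and of array 1 in the WT groups. On 1454060_a_at, 1 of its 3 probe sets, the unstimulated arrays labelled N-ras KO read 0.00, -0.04 and 2.04 and the stimulated ones 0.51, 0.08 and 2.09, while the unstimulated arrays labelled WT read -2.68, 0.28 and 0.00 and the stimulated ones -3.04, -0.10 and 0.00. The other 2 probe sets showed the same for N-ras KO 3 and for unstimulated WT 1, but on 1422687_at the stimulated WT arrays read -0.14, 0.38 and -0.19, so that stimulated WT 1 did not stand apart there. Genotypes below are those of the labels, and results are also given without these 2 pairs. In the thymocytes Nras was lower in the N-ras KO array on all 3 probe sets, by 1.81 to 2.46 log2, as its label says.

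Promoter windows, from 250 bases before to 50 after a gene's start (RefSeq, GRCm38.p6), were found for 41 of the 49 genes, 39 of them subunit or assembly genes. They are shown for 3 genes. Psmc4, a regulatory particle ATPase, had the largest difference in response between the genotypes among genes where 2 probe sets did not overlap between them. Psmb5 is the constitutive chymotrypsin-like subunit, and Psme1, an activator subunit, had WT and N-ras KO pairs on opposite sides of 0. Each is written 5′ to 3′ on the strand of its gene, and capitals mark matches to the motifs listed after them.
Psmc4, chr7:28050043-28050342, minus strand: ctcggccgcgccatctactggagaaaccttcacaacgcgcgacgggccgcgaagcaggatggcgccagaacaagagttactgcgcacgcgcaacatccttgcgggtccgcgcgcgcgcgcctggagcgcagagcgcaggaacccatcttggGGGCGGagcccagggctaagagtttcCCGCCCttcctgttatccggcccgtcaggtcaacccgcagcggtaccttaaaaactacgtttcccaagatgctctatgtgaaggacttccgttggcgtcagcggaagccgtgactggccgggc
Psmb5, chr14:54617946-54618245, minus strand: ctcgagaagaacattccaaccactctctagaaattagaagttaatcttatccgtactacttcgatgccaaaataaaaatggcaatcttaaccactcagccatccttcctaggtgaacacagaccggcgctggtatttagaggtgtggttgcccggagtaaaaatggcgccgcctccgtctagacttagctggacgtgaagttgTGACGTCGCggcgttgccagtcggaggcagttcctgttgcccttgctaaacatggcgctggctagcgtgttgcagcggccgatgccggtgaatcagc
Psme1, chr14:55578244-55578543, plus strand: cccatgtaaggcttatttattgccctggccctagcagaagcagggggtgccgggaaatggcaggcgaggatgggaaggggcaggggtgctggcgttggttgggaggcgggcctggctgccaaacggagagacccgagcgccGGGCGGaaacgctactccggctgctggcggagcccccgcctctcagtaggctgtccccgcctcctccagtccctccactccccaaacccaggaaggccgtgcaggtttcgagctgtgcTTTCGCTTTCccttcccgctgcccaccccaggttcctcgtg

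Both marked runs of Psmc4 match the Sp1 motif GGGCGG, 1 on each strand. The run of Psmb5 matches TGACNNNGC, the core of the element that Nfe2l1 and Nfe2l2 bind. In Psme1 the first run matches Sp1 and the second, on the opposite strand, matches the interferon regulatory factor motif (GAAA, any 2 bases, GAAA). No marked run overlaps another. Over the 39 windows, searched on both strands, the Ets motif CCGGAAG was held by 14 (35.9%), against 9.93% of 27025 genes with a window, and Sp1 by 22 (56.4% against 38.2%). The interferon regulatory factor motif was held by 5 (12.8% against 3.99%), among them Psme1 and Psmb3 but not Psmb8 or Psmb9. Psmb10 was not among the genes listed for any motif. Whether it was among the genes with a window is not given here, so this does not show that its promoter lacks them. The Nfe2l1 and Nfe2l2 element was held by 6 (15.4% against 14%), namely Psmb5, Psmb6, Psmc6, Psmd9, Psmd12 and Psme4. The NF-Y motif CCAAT (35.9% against 41.1%) and the Stat motif TTCNNNGAA (7.69% against 9.55%) were no more common than over all genes. These matches describe the letters of the windows and are no evidence of binding.

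The first question was how the proteasome genes responded to stimulation in each genotype. The response is the stimulated minus the unstimulated array of the same number, in log2, and 1 probe set was taken per gene for counts and medians over genes. In WT cells the median over the 49 genes was 0.11, with 36 of them above 0, against a median of 0.01 and 52.1% above 0 over all 18194 genes. In N-ras KO cells the median was -0.07, with 14 of 49 above 0, against 0.01 and 52.3% over all genes. The changes were small for nearly every gene, and no member passed limma's adjusted threshold in either genotype.

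By pair, the median over the 49 genes was 0.11, 0.13 and 0.22 in the 3 WT pairs and -0.09, -0.09 and -0.03 in the 3 N-ras KO pairs, so the pairs of the genotypes did not overlap. Over the 47 subunit and assembly genes, leaving out Psmc3ip and Psme3ip1, the pair medians were 0.11, 0.13 and 0.24 in WT and -0.09, -0.07 and 0.01 in N-ras KO, so they still did not overlap but the pair N-ras KO 3 lay just above 0. The genes above 0 numbered 29, 29 and 41 in the WT pairs and 18, 15 and 24 in the N-ras KO pairs, while over all genes 47% to 54.6% were above 0 in every pair. Without the pairs labelled WT 1 and N-ras KO 3 the medians were 0.14 and -0.10, and without the pairs numbered 3 they were 0.09 and -0.10. Genes of 1 complex are not independent replicates, so these counts carry no test.

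**Figure D1:**
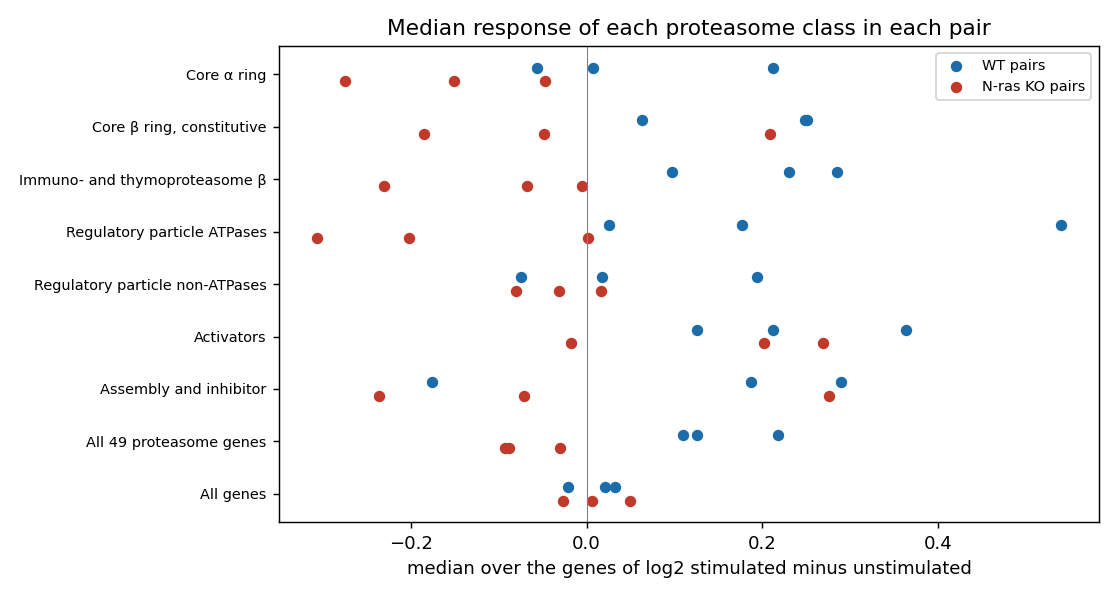
Median response (log2 stimulated minus unstimulated, horizontal axis) over the genes of each proteasome class, over all 49 proteasome genes and over all genes, with 1 point for each of the 3 WT pairs (blue) and the 3 N-ras KO pairs (red). The medians over the 49 genes lie between 0.11 and 0.22 in WT and between -0.09 and -0.03 in N-ras KO, while those over all genes lie near 0 in both.

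By class, with 1 probe set per gene, the ATPases showed the widest gap. Of the 6 ATPases 5 were above 0 in WT, with a median of 0.20, and 1 in N-ras KO, with a median of -0.25. On the mean of the 3 pairs, all 4 alternative catalytic subunits were above 0 in WT (median 0.15) and below 0 in N-ras KO (median -0.14). Some lay close to 0, the nearest at 0.05 in WT and -0.01 in N-ras KO. Psmb8 was above 0 in N-ras KO (0.06) on its other probe set. Pair by pair, 4, 3 and 3 of them were above 0 in WT and 2, 2 and 1 in N-ras KO. The constitutive beta ring had 6 of 7 above 0 in WT (median 0.20) and 2 of 7 in N-ras KO (median -0.08). The alpha ring had 5 of 8 above 0 in WT (median 0.06) and 1 of 8 in N-ras KO (median -0.10). The non-ATPase subunits had medians near 0, with 7 of 11 above 0 in WT (median 0.05) and 4 of 11 in N-ras KO (median -0.02). Among the assembly and inhibitor genes 6 of 8 were above 0 in WT (median 0.11) and 3 of 8 in N-ras KO (median -0.05), and of the 3 activators Psme1 and Psme3 were above 0 in WT, and Psme3 and Psme4 in N-ras KO.

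**Figure D2:**
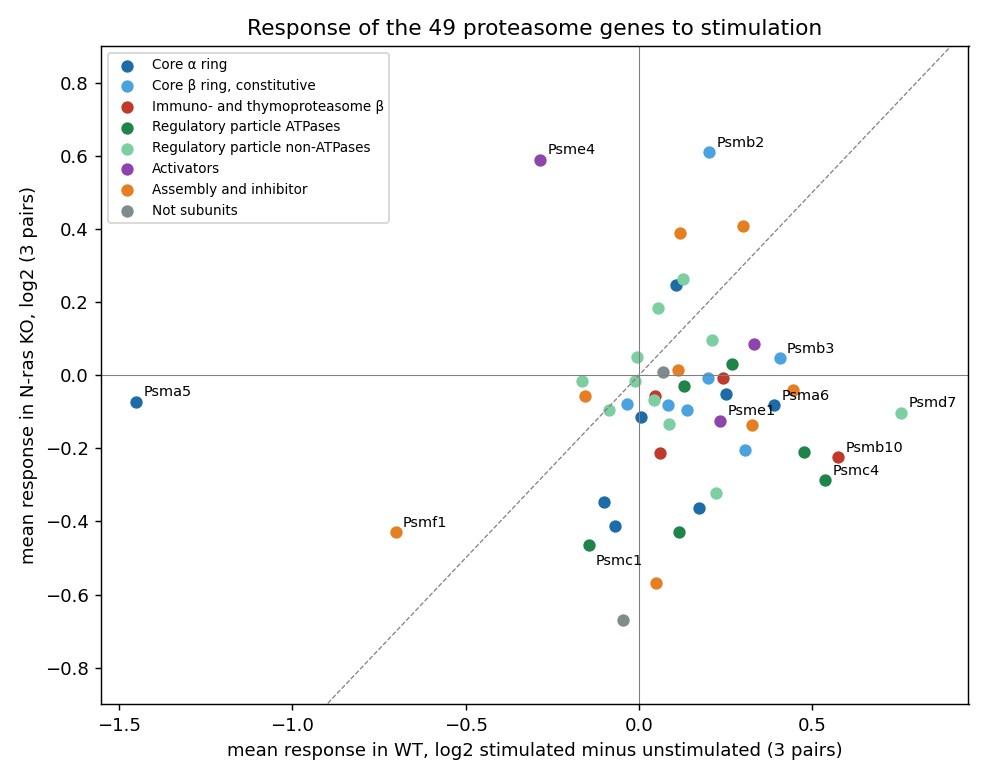
Mean response of each of the 49 proteasome genes in WT (horizontal axis) and in N-ras KO (vertical axis), in log2 over 3 pairs, coloured by class; the dashed line marks equal responses. Most points lie right of 0 and below the dashed line, with 37 of 49 genes higher in WT, and Psma5, Psmf1 and Psme4 stand apart on the left.

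For single genes, 9 of the 103 member probe sets (8.74%) had an unadjusted p under 0.05 in the WT response, against 4.3% of all probe sets, and 8 (7.77%) in the N-ras KO response, against 7.1%. With the further requirement of 1.5-fold that the study used, 2 were higher and 2 lower in WT, against 1.43% and 1.37% of all probe sets. In N-ras KO 2 were higher and 3 lower, against 2.25% and 2.65%. The WT share at the unadjusted p alone was above its background, and the others were near theirs. That WT count depended on the pairing and on 1 pair. It was 1 of 103 with no replicate block, against 1.15% of all probe sets, and 2 without WT replicate 1, against 3.72%. Leaving out any other replicate it ran from 5 to 8, against 3.31% to 5.16%. With 1.5-fold required as well, 5 were higher and 1 lower in WT after quantile normalization, against 1.42% and 1.16% of all probe sets. In N-ras KO 1 was then higher and 3 lower, against 1.42% and 1.44%. After centring each array on its median 2 were higher and 1 lower in WT (1.6% and 1.26% of all), and 1 higher and 3 lower in N-ras KO (2.06% and 2.96%). After Benjamini-Hochberg adjustment over all 45101 probe sets, limma called 0% of them in each of the 2 responses, and the lowest adjusted p of a member was 1 in WT and 0.571 in N-ras KO.

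The difference between the 2 responses was then tested directly, as the WT minus the N-ras KO response. Its median over the 49 genes was 0.22, with 37 above 0, against -0.00 and 49.6% over all genes. Without the pairs labelled WT 1 and N-ras KO 3 it was 0.28 with 39 above 0, and without the pairs numbered 3 it was 0.20 with 35 above 0. Of the 103 probe sets 7 had an unadjusted p under 0.05 (6.8%, against 4.58% of all probe sets). All 7 also differed by at least 1.5-fold, 6 higher in WT against a background of 2.28% and 1 lower against 1.84%. None passed the adjusted threshold, which 0% of all probe sets passed, and the adjusted p of the members ran from 0.961 to 0.998 in limma. In 16 of the 103 probe sets, from 13 genes, every WT pair lay above every N-ras KO pair (15.5%, against 5.41% of all probe sets), and in 3 every WT pair lay below (2.91%, against 4.98%). With arrays not paired by number, 0 of the 103 had an unadjusted p under 0.05 in limma for this difference, against 1.3% of all probe sets. Of the 7, Psmb10 and 1 probe set of Psmd11 (1440253_at) kept it without the pairs labelled WT 1 and N-ras KO 3.

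Psmb10, the immunoproteasome's trypsin-like subunit, was among these 7. Its responses were 0.37, 0.62 and 0.74 in the WT pairs and 0.02, -0.06 and -0.63 in the N-ras KO pairs. All WT pairs lay above all N-ras KO pairs. The mean was 0.58 ± 0.19 (SD, n = 3) in WT and -0.22 ± 0.35 (SD, n = 3) in N-ras KO. The difference was 0.80 log2 (standard error 0.25, unadjusted p = 0.0183 and adjusted p = 0.961 in limma), and without the pairs labelled WT 1 and N-ras KO 3 it was 0.70, while without the pairs numbered 3 it was 0.52 with an unadjusted p of 0.112. The arrays themselves spread widely. Unstimulated WT arrays read -1.0, 0.00 and 0.53 and stimulated ones -0.63, 0.62 and 1.27, so the response showed within pairs and not as a separation of the arrays.

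The other alternative subunits had mean responses nearer to 0. Psmb9, which takes the place of Psmb6 in the immunoproteasome, had responses of 0.07, 0.26 and 0.40 in WT and -0.26, 0.11 and 0.13 in N-ras KO, which overlapped. Psmb8, the chymotrypsin-like immunosubunit, gave 0.13, -0.05 and 0.06 in WT on 1422962_a_at. In N-ras KO it gave 0.02, 0.05 and -0.24 there, and these also overlapped. Its 1444619_x_at averaged 0.03 in WT and 0.06 in N-ras KO, a difference of -0.03. Psmb11, the thymic subunit, gave 0.03, 0.31 and -0.16 in WT and -0.15, -0.27 and -0.22 in N-ras KO. The constitutive counterparts had mean WT responses of 0.20 ± 0.06 for Psmb5, -0.03 ± 0.39 for Psmb6 and 0.08 ± 0.19 for Psmb7 (SD, n = 3). Their N-ras KO means were -0.01 ± 0.27, -0.08 ± 0.28 and -0.08 ± 0.17. Of the other constitutive beta subunits, Psmb3 had the smallest p in WT, with responses of 0.50, 0.21 and 0.51 (unadjusted p = 0.0366, adjusted p = 1 in limma), although its second probe set averaged 0.14. Psmb1 did not overlap between the genotypes on 2 of its 3 probe sets, with differences of 0.51 and 0.40. Psmb4 did not overlap on 1451205_at, with 0.13, 0.04 and 0.25 in WT and -0.09, -0.20 and 0.01 in N-ras KO. Psmb2 averaged 0.61 in N-ras KO, but from -0.22, -0.09 and 2.14, so the mean rested on the pair N-ras KO 3.

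**Figure D3:**
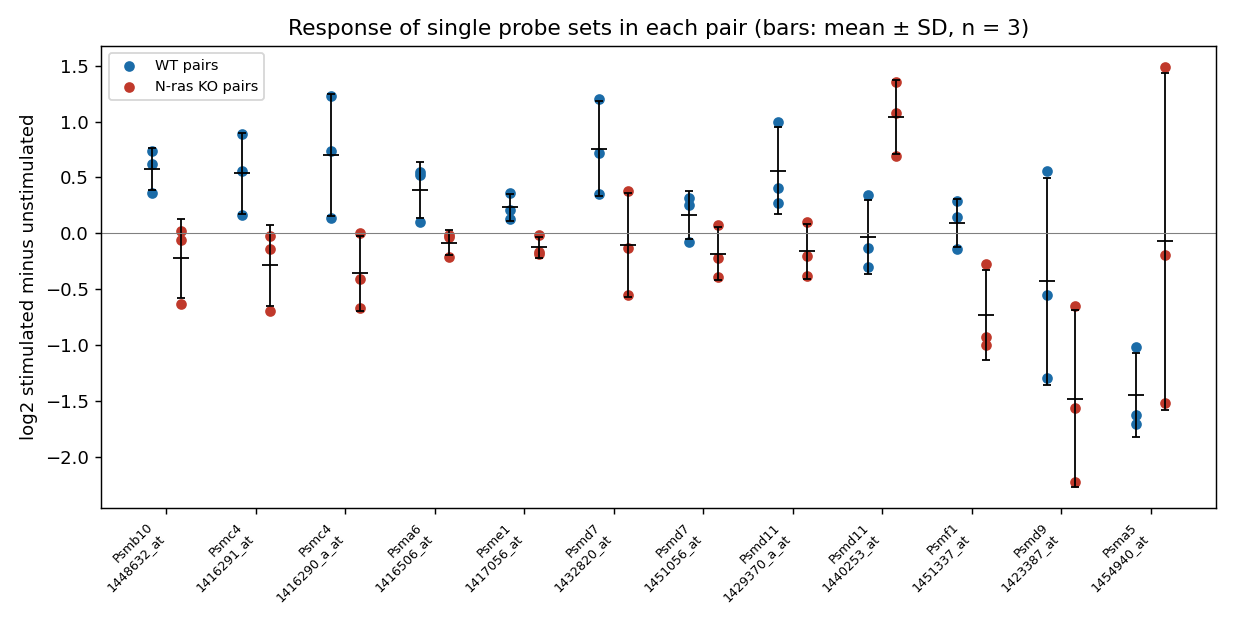
Response (log2 stimulated minus unstimulated) of 12 probe sets in each of the 3 WT pairs (blue) and the 3 N-ras KO pairs (red), with the mean and SD of the 3 pairs in black. Psmb10 and both probe sets of Psmc4 do not overlap between the genotypes, and the pairs of probe sets shown for Psmd7 and Psmd11 differ from each other.

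Psmc4, whose product is the ATPase also called Rpt3 and sits in the unfolding ring, had the same pattern on both of its probe sets. On 1416290_a_at the responses were 1.23, 0.73 and 0.13 in WT and -0.41, 0.00 and -0.66 in N-ras KO. On 1416291_at they were 0.89, 0.55 and 0.17 in WT and -0.14, -0.02 and -0.70 in N-ras KO. On both, every WT pair lay above every N-ras KO pair. The differences were 1.06 (standard error 0.34, unadjusted p = 0.0211) and 0.82 (standard error 0.29, unadjusted p = 0.0293), each with an adjusted p of 0.961 in limma. Without the pairs labelled WT 1 and N-ras KO 3 they were 0.64 and 0.44, with unadjusted p of 0.132 and 0.173 in limma, and without the pairs numbered 3 they were 1.19 and 0.80, with unadjusted p of 0.0225 and 0.0399. Of the other ATPases, Psmc1 had the smallest p in N-ras KO, with responses of -0.26, -0.54 and -0.60 (unadjusted p = 0.0345, adjusted p = 0.689 in limma) and -0.48, -0.14 and 0.19 in WT. Psmc5 averaged 0.47 in WT and -0.21 in N-ras KO, with overlapping pairs. On the probe set taken for each gene, Psmc2, Psmc3 and Psmc6 averaged 0.27, 0.13 and 0.11 in WT. Over the 3 probe sets of Psmc2 the WT means ran from -0.24 to 0.27 and the differences from -0.50 to 0.24. Over the 3 of Psmc6 they ran from -0.28 to 0.19 and from -0.29 to 0.54.

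Among the non-ATPase subunits, which hold the ubiquitin receptors, the scaffold and the deubiquitinase, probe sets of 1 gene often differed. Psmd7, the partner of the deubiquitinase Psmd14, gave 1.20, 0.72 and 0.35 in WT and 0.38, -0.56 and -0.13 in N-ras KO on 1432820_at. The groups met at 0.35 and 0.38, and the difference was 0.86 (standard error 0.34, unadjusted p = 0.0432, adjusted p = 0.961 in limma). Its 1451056_at gave 0.26, -0.08 and 0.31 in WT and -0.22, -0.39 and 0.07 in N-ras KO, a difference of 0.35. Psmd11, which helps hold the lid to the core, had 8 probe sets. On 1429370_a_at the WT responses were 1.00, 0.27 and 0.41 and the N-ras KO responses -0.38, 0.10 and -0.20, a difference of 0.72 (unadjusted p = 0.0368 in limma, and 0.48 without the pairs labelled WT 1 and N-ras KO 3). On 1440253_at the direction was the opposite, with 0.34, -0.13 and -0.30 in WT and 0.70, 1.08 and 1.35 in N-ras KO, a difference of -1.07 (unadjusted p = 0.00769, adjusted p = 0.961 in limma). That probe set had the smallest p of any member in N-ras KO, with a mean response of 1.04 ± 0.33 (SD, n = 3). Psmd13 gave 0.25, 0.45 and 0.61 in N-ras KO on 1447843_at (unadjusted p = 0.0376, adjusted p = 0.689 in limma), while its 1422459_a_at averaged -0.39 there. Psmd1, the largest scaffold, was not past the unadjusted threshold but did not overlap, with 0.40, -0.13 and 0.40 in WT and -0.22, -0.46 and -0.29 in N-ras KO.

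In the alpha ring, which gates the core, Psma6 gave 0.52, 0.54 and 0.10 in WT and -0.21, -0.01 and -0.03 in N-ras KO on 1416506_at. The genotypes lay on opposite sides of 0, with an unadjusted p of 0.0382 for the WT response and 0.0638 for the difference, and adjusted p of 1 and 0.961 in limma. Its 4 probe sets did not share a sign, with mean WT responses from -0.36 to 0.39 and differences from -0.41 to 0.51. Psma5 had the mean WT response farthest from 0 among the members, -1.45 ± 0.38 (SD, n = 3) on 1454940_at, from -1.63, -1.02 and -1.70, while the N-ras KO pairs read -1.51, -0.19 and 1.49. Its other 2 probe sets averaged 0.34 and 0.26 in WT, so the direction depended on the probe set. Psma1 likewise averaged -0.90 on 1458292_at (unadjusted p = 0.0464 in limma) and 0.01 on 1415695_at. Psma8 averaged 0.17 in WT and -0.36 in N-ras KO, with overlapping pairs. Psma3 gave -0.60, -0.36 and -0.28 in N-ras KO on 1441707_at (unadjusted p = 0.0467, adjusted p = 0.699 in limma). Of the 27 genes with several probe sets, 14 had the same sign on all of them in WT, 15 in N-ras KO and 11 in the difference.

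The activators and the assembly genes differed among themselves. Psme1, an interferon-inducible activator subunit, gave 0.21, 0.13 and 0.36 in the WT pairs and -0.19, -0.02 and -0.17 in the N-ras KO pairs. These lay on opposite sides of 0, with a difference of 0.36 (standard error 0.18, unadjusted p = 0.0934, adjusted p = 0.961 in limma). Psme3, a nuclear activator, averaged 0.33 in WT and 0.09 in N-ras KO. Psme4, an activator known from histone turnover, ran the other way, with -0.78, -0.28 and 0.21 in WT and 0.33, 0.19 and 1.24 in N-ras KO, although its 6 probe sets averaged between -0.85 and 0.14 in WT. Psmf1, named for its inhibition of the core in vitro, gave -1.0, -0.27 and -0.93 in N-ras KO and -0.14, 0.14 and 0.29 in WT on 1451337_at. The groups did not overlap, and the difference was 0.83 (standard error 0.27, unadjusted p = 0.0214, adjusted p = 0.961 in limma). On its other 3 probe sets the N-ras KO pairs differed in sign. Over all 4 the N-ras KO means ran from -0.73 to -0.36 and the WT means from -0.70 to 0.10. The differences ran from -0.27 to 0.83, so the gap between genotypes depended on the probe set. Psmd9, an assembly chaperone, averaged -1.48 ± 0.79 in N-ras KO on 1423387_at and 0.60 ± 0.40 on 1447670_at (SD, n = 3), with unadjusted p of 0.0121 and 0.0202 by limma in opposite directions. Psmd5, another assembly chaperone, averaged 0.33 in WT and -0.14 in N-ras KO, and Psmg1 averaged 0.44 and -0.04. Of the chaperones Psmg1 to Psmg4, Psmg4 had the smallest p, with a mean WT response of 0.30 and a mean N-ras KO response of 0.41. Psme3ip1, which is no subunit, averaged 0.07 in WT and 0.01 in N-ras KO. Psmc3ip, a recombination factor that is no subunit, averaged -1.09 in N-ras KO on 1442058_s_at (unadjusted p = 0.0241, adjusted p = 0.672 in limma). The study's own list of genes that differed in these samples holds Psmd7, Psmf1 and Psma5. All values here come from the same arrays, so neither those of these genes nor those of the other members are independent evidence.

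The second comparison set stimulated WT directly against stimulated N-ras KO arrays, each relative to its own baseline. The median over the 49 genes was 0.44 higher in WT, with 39 above 0, against -0.02 and 47.8% over all genes. This value rested on the arrays numbered 3. Without them the median was -0.10 with 20 of 49 above 0, and without the arrays labelled WT 1 and N-ras KO 3 it was 0.40. It was 0.23 after quantile normalization and 0.21 with array weights. Of the 103 probe sets 12 had an unadjusted p under 0.05 (11.7%, against 7.6% of all), with 7 higher by 1.5-fold against 3.33% and 4 lower against 3.57%. Without the arrays numbered 3 the split turned to 5 higher and 8 lower, against 6% and 5.38% of all probe sets. After quantile normalization it was 3 higher and 1 lower, against 2.18% and 2.04%. At the adjusted threshold of limma, 0% of all probe sets were called, and the lowest adjusted p of a member was 0.585.

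The arrays numbered 3 stood apart before and after stimulation. The median over the 49 genes in the unstimulated arrays was -0.09, 0.00 and 0.54 in WT and 0.00, 0.10 and -0.65 in N-ras KO, and in the stimulated arrays it was -0.12, 0.04 and 0.80 in WT and -0.13, 0.02 and -0.46 in N-ras KO. Over all genes the median stayed between -0.08 and 0.15. Psmc4 (1416290_a_at) is an example, at 1.73 and 1.86 in the unstimulated and stimulated arrays of WT 3 and at -2.48 and -3.14 in those of N-ras KO 3. Psmb5 ran the other way, at -0.45 and -0.24 in WT 3 and at 0.71 and 0.92 in N-ras KO 3. The median of the T-cell marker list (Cd3d, Cd3e, Cd3g, Cd4, Cd5 and Cd28) had the same signs as that of the proteasome genes, at 0.79 and 0.69 in WT 3 and -0.65 and -0.84 in N-ras KO 3, although Cd3e read -0.17 and -0.17 in WT 3 and 0.44 and 0.42 in N-ras KO 3. So did the median of the macrophage and dendritic cell list, at 1.07 and 1.63 in WT 3 and -0.41 and -0.23 in N-ras KO 3. The B-cell list was high in both, between 0.79 and 1.22. Their part in the result was not tested.

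**Figure D4:**
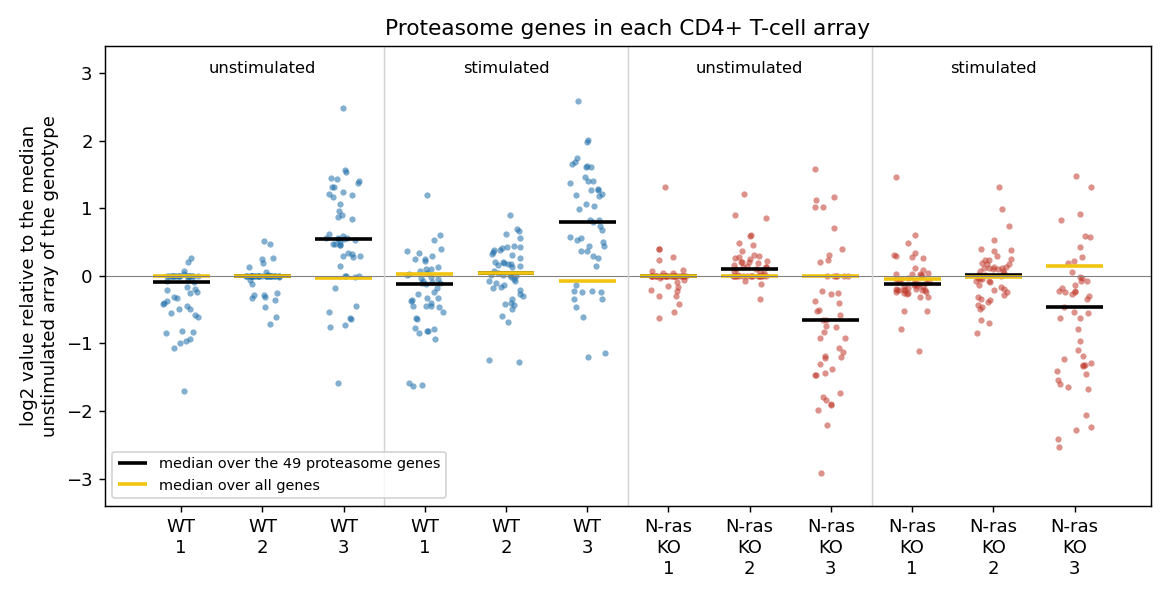
Values of the 49 proteasome genes (points, 1 probe set per gene) on each of the 12 CD4+ T-cell arrays, in log2 relative to the median unstimulated array of the genotype, with the median over the 49 genes in black and over all genes in yellow. The medians of WT 3 (0.54 and 0.80) and N-ras KO 3 (-0.65 and -0.46) stand apart from those of the other arrays, which lie between -0.13 and 0.10.

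Marker lists of other cells were set beside the responses. The neutrophil list (8 genes) had a median response of 1.00 in N-ras KO, with 8 of 8 above 0, and of -0.09 in WT, with 1 of 8 above 0. By pair its medians were 1.49, 1.43 and -0.36 in N-ras KO and 0.05, 0.18 and -0.95 in WT. The macrophage and dendritic cell list (5 genes) had a WT median of 0.39 and an N-ras KO median of -0.35. By pair its medians were 0.16, 0.37 and 0.06 in WT and 0.095, -0.09 and -0.29 in N-ras KO, which overlapped. The cytotoxic and NK cell list (6 genes measured) was at -0.11 and 0.14, the B-cell list (5 measured) at 0.01 and 0.37, the T-cell list (6 measured) at -0.02 and -0.05, the red cell list (2 measured) at -0.16 and -0.11 and the thymic epithelial list at 0.12 and 0.07. In such bulk samples fewer cells of a type and less RNA per cell cannot be told apart, and the part of these cells in the proteasome values was not tested. The activation list (Il2ra, Cd69, Egr2, Nr4a1 and Irf4) was above 0 for 5 of 5 genes in both genotypes, with a WT median of 1.66 and an N-ras KO median of 2.39.

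Genes that work with the proteasome were taken as 3 lists. Of the 24 proteasome-associated factors and regulators 21 were measured, with 16 above 0 in WT (median 0.09) and 10 in N-ras KO (median -0.01). On 1 of its 6 probe sets (1416681_at) Ube3a, a ubiquitin ligase, gave 1.02, 0.81 and 0.14 in WT (unadjusted p = 0.0194 in limma) and -0.15, 0.33 and 0.15 in N-ras KO, while the WT means of the others ran from -0.83 to 0.20. On 1416208_at, 1 of its 4 probe sets, Usp14, the deubiquitinase that docks on the regulatory particle, gave 0.18, 0.48 and 0.49 in WT and -0.31, -0.13 and -0.21 in N-ras KO, on opposite sides of 0 in all pairs, with a difference of 0.60 (unadjusted p = 0.0189, adjusted p = 0.961 in limma). Ubqln1, a shuttle for ubiquitin-tagged proteins, averaged 0.58 in WT on 1419385_a_at but -0.04 and 0.09 on the others, and Zfand5 averaged 0.43 on 1453224_at and from -0.43 to 0.18 on the others. Of the 12 genes of peptide trimming and loading for MHC class I, 11 were measured, with 10 above 0 in WT (median 0.05) and 3 in N-ras KO (median -0.06). Irf1 averaged 0.44 in WT (unadjusted p = 0.0494 in limma) and 0.09 in N-ras KO. The cytosolic peptidase Tpp2 averaged -0.56 in WT on 1430575_a_at and -0.52 on 1430576_at. Nlrc5, the MHC class I transactivator, averaged 0.33 in N-ras KO, and Tapbp, a peptide-loading chaperone, averaged -0.42 on 1450378_at and -0.06 on 1421812_at. Of the 6 ubiquitin genes and E1 enzymes Uba6 was the single gene with probe sets of its own, and 1428944_at, 1 of its 5, read -1.0, -0.49 and -1.45 in N-ras KO (unadjusted p = 0.0058, adjusted p = 0.634 in limma) and -0.29, -0.48 and 0.28 in WT. No gene of the 3 lists passed the adjusted threshold in limma.

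In thymocytes the proteasome genes differed little between the genotypes. With 1 array per genotype there is no replicate check and no test, and both comparisons share the WT array. In WT minus N-ras KO, 31 of 48 genes were above 0, 11 below 0 and 6 equal, with a median of 0.05. Over all 12394 genes 4426 were above, 3855 below and 4113 equal, with a median of 0. The equal genes included Psma5 (1454940_at), Psmb1 (1420053_at), Psmd7 (1432820_at) and Psmd11 (1431013_at), whose probe sets read 0.00 on every array. So did 1416290_a_at of Psmc4 and 1423387_at of Psmd9. Psmd7 was at 0.19 on 1451056_at, so equal counts depended on the probe set taken. Whether such flat probe sets were dim was not tested. No member probe set differed by 1.5-fold (0.585 log2), where 1.09% of all probe sets were higher and 1.55% lower by that much. In WT minus H-ras KO, 18 genes were above 0 and 21 below, with a median of 0, and 1 of the 85 probe sets passed 1.5-fold, against 1.51% higher and 1.47% lower over all. This was Psma8, an alpha subunit known from germ cells, at 0.74, which read 0.00, 0.22 and -0.74 on the arrays of WT, of N-ras KO and of H-ras KO.

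The differences by class in WT minus N-ras KO were small. The non-ATPase subunits had 9 of 11 above 0 and none below, with a median of 0.09. The constitutive beta ring had 6 of 7 above 0 and none below, with Psmb5 at 0.12, Psmb6 at 0.10 and Psmb7 at 0.11. The immunosubunits lay below 0, with Psmb10 at -0.18, Psmb9 at -0.14 and Psmb8 at -0.06, and so did Psme1 at -0.16. In WT minus H-ras KO the same genes lay nearer to 0, at -0.08, 0.05, 0.02 and -0.03. Of the 48 genes in WT minus N-ras KO, with 1 probe set per gene, Psme3 (1418078_at) had the largest difference, 0.37. This probe set was at 0.39 in WT minus H-ras KO, since the WT array read 0.37 and the others 0.00 and -0.02. In the same 2 comparisons its 1418079_at was at 0.30 and 0.10, and its 1438509_at at 0.04 and 0.00. Psma6 reached -0.58 in WT minus N-ras KO on 1435316_at, just inside 1.5-fold, while its 1416506_at was at -0.02. The neutrophil list was higher on the WT array for 8 of 8 genes in both comparisons, with medians of 1.45 and 2.01. The B-cell list had medians of -0.38 in WT minus N-ras KO and 0.29 in WT minus H-ras KO, the thymic epithelial list 0.15 and -0.53, and the T-cell list -0.13 and 0.02. The part of these cells in the proteasome values was not tested.

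**Figure D5:**
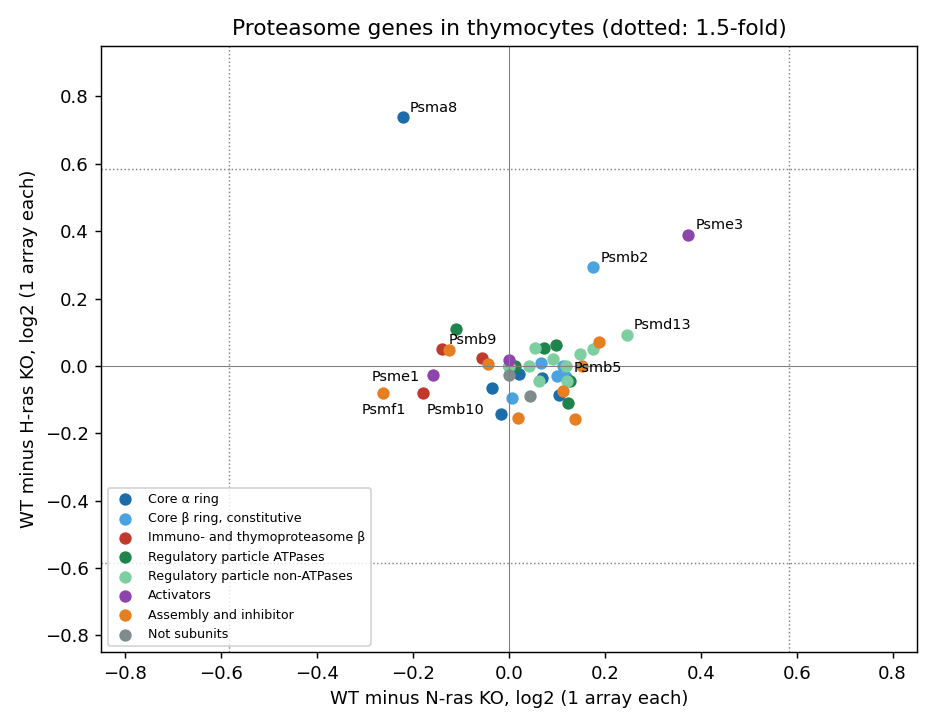
Difference between the WT thymocyte array and the N-ras KO array (horizontal axis) and the H-ras KO array (vertical axis) for 48 proteasome genes, in log2, with 1 array per genotype, coloured by class; dotted lines mark 1.5-fold. With 1 probe set per gene, Psma8 lies beyond the line at 0.74, Psme3 (1418078_at) is at 0.37 and 0.39, and Psmb2 follows at 0.18 and 0.29.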

How the data were processed

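RNA was hybridized to Affymetrix arrays, 12 for CD4+ T cells and 3 for thymocytes. The authors deposited log2 expression from RMA (GeneSpring), quantile normalized and then set relative to controls, per the methods and the submitters' notes; the log2 values hold no brightness, so no filter on dim probe sets could be run. Depth does not apply to arrays, and precision is limited by 3 arrays per group.

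Gene names came from the platform annotation held by GEO (34958 of 45101 and 20393 of 22690 probe sets had 1 gene). For counts of genes, 1 probe set per gene was taken by type (_at, then _a_at, _s_at, _x_at) and ID. limma 3.58.1 in R 4.3.3 was fitted to all 12 arrays and 45101 probe sets with a term for each pair of arrays of 1 genotype and number, two-sided, with Benjamini-Hochberg adjustment (threshold 0.05). Stimulated WT and N-ras KO arrays were compared in a fit of the 4 groups without pairs. Numbers pair the arrays: deviations of stimulated and unstimulated arrays of the same number correlated at 0.458, 0.447 and 0.738 in WT and 0.361, 0.394 and 0.626 in N-ras KO, and each correlated best with its own number. The script for these fits was checked on simulated arrays.

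Members, lists and motifs were chosen with earlier results of these data known. Genes named are, per class, up to 3 with the smallest p in each response and up to 2 in the difference, members past 1.5-fold in thymocytes, the catalytic and interferon-inducible subunits, Psmd7, Psmf1, Psma5 and up to 4 per pathway list; others were chosen after their values were seen. Alternatives were another pairing or none, the methods' t-test, centring, quantile normalization, array weights, leaving out _s_at and _x_at probe sets, the mean over a gene's probe sets, a 2-fold threshold and leaving out arrays; leaving out the arrays numbered 3 was chosen after seeing the data. Quantile normalization as an alternative was applied to the deposited values, already quantile normalized and set relative to a baseline. It therefore evened out the distribution of differences from that baseline, not of expression levels. Promoter sequences are RefSeq's (GRCm38.p6).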

Additional observations from a re-analysis of the deposited data

Results flagged for a closer look

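The median response over the 49 proteasome genes was above 0 in every WT pair and below 0 in every N-ras KO pair (in 2 of 3 over the 47 subunit and assembly genes), and the means of the pair medians differed by 0.22 log2. This difference was not tested as a median. The same split of signs, with 3 WT pairs above 0 and 3 N-ras KO pairs below 0, was seen in 5 of the 103 probe sets (4.85%), against 1.54% of all probe sets, and the reverse split in 0, against 1.43%. The 5 were Psme1 (1417056_at, difference 0.36), Psma6 (1416506_at, 0.47), Psmb1 (1420053_at, 0.51), Psmc4 (1416291_at, 0.82) and Psmd11 (1432727_at, 0.25). The other probe sets of Psma6 and Psmd11 did not all share this direction. limma's adjusted p for the difference was 0.961 for each of them. Psmb1, a constitutive beta subunit, gave 0.37, 0.33 and 0.21 in WT and -0.05, -0.04 and -0.53 in N-ras KO.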

How the results depend on the processing

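The WT, N-ras KO and difference medians kept their sign in every alternative run. They ran from 0.08 to 0.15, from -0.10 to -0.07 and from 0.20 to 0.28, and over leave-one-out fits from 0.09 to 0.14, from -0.10 to -0.05 and from 0.17 to 0.25. The genes above 0 ran over leave-one-out fits from 30 to 37 of 49 in WT, 14 to 19 in N-ras KO and 34 to 37 in the difference. No member passed the adjusted threshold in any alternative. The median of stimulated WT minus N-ras KO reversed to -0.10, with 20 genes above 0, without the arrays numbered 3, and leaving out 1 replicate it ran from 0.15 (without WT 3; 0.26 without N-ras KO 3) to 0.51, with 33 to 42 genes above 0.

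Counts of member probe sets past an unadjusted p of 0.05 and 1.5-fold were less stable. The shares over all probe sets, given as higher and lower, moved as well. In WT (4 as reported, against 1.43% and 1.37% of all) the count was 1 with no replicate block (0.53% and 0.51%). It was 1 with the replicate block by number across both genotypes (0.57% and 0.477%) and 2 by the methods' t-test (0.423% and 0.355%). By the mean over probe sets it was 1 gene (1.57% and 0.94% of all genes). In N-ras KO (5, against 2.25% and 2.65%) the counts in the same order were 2 (1.16% and 1.19%), 3 (1.29% and 1.19%), 0 (0.388% and 0.51%) and 1 (1.9% and 2.12%). The count was 2 without WT 1 and N-ras KO 3 (2.99% and 2.98%) and 2 without the arrays numbered 3 (2.7% and 2.6%). In the difference (7, against 2.28% and 1.84%) the count was 0 with no replicate block (0.665% and 0.627%) and 0 with the block by number (0.707% and 0.645%). It was 3 by the mean over probe sets (2.34% and 1.53%). It was 3 without WT 1 and N-ras KO 3 (2.73% and 2.91%) and 3 without the arrays numbered 3 (2.68% and 2.48%). In stimulated WT minus N-ras KO (11, against 3.33% and 3.57%) the count was 4 by the t-test (2.01% and 2.07%) and 4 after quantile normalization (2.18% and 2.04%). It was 5 with array weights (4.88% and 4.91%) and 0 by the mean over probe sets (3.04% and 2.72%). It was 3 without WT 1 and N-ras KO 3 (3.58% and 3.66%). Without the arrays numbered 3 it was 13 (5 higher and 8 lower, against 6% and 5.38%). Leaving out 1 replicate the counts ran from 1 (without WT 1; 2 without WT 2) to 5 in WT, 4 to 6 in N-ras KO, 5 to 9 in the difference and 2 (without N-ras KO 3) to 11 in stimulated arrays (5 without WT 1 or WT 2, 4 without WT 3, 6 without N-ras KO 1). In these leave-one-out fits the shares over all probe sets ran from 1.41% to 1.71% higher and from 1.3% to 1.81% lower in WT. They ran from 1.87% to 3.18% and from 2.29% to 4.1% in N-ras KO, and from 1.92% to 3.14% and from 1.4% to 2.84% in the difference. In stimulated arrays they ran from 2.65% to 3.83% and from 2.62% to 4.35%. Over all probe sets, the counts with no replicate block were 239 higher and 230 lower in WT (645 and 617 as reported), 522 and 535 in N-ras KO (1017 and 1196) and 300 and 283 in the difference (1027 and 832). At 2-fold, 0 member probe sets differed between WT and H-ras KO thymocytes. The cause of these changes was not tested. For single probe sets, 252 values under an alternative, against 279 that kept their side, no longer had an unadjusted p under 0.05 and none changed sign. Not run were the filter on dim probe sets, for want of brightness, and a t-test of the difference, which the methods do not define.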
